A study of Arabidopsis thaliana with 83 samples.

Results

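UDP-glycosyltransferases (UGTs) and glutathione S-transferases (GSTs) were followed in auxin-treated seedlings of 7 natural accessions of Arabidopsis thaliana. The members were the genes whose symbol begins with UGT and a digit, or with GSTU, GSTF, GSTT, GSTZ, GSTL or ATGST, and that had a probe set listed with that gene alone. The rule used no measured value and gave 61 genes, 47 UGT and 14 GST, of the 106 genes with such symbols in the RefSeq gene table (57.5%). Each had 1 probe set. A filter on low signals left 42 of the 61 for testing, 30 UGT and 12 GST genes, and the other 19 carried too little signal. The tested GST genes were 9 of the tau class (GSTU), 2 of the phi class (GSTF4 and ATGSTF13) and 1 of the lambda class (GSTL3).

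Whole seedlings were profiled on 83 ATH1 arrays (Affymetrix) at times labelled 0 h, 30 min, 1 h and 3 h in Bay-0, Sha, C24, Bl-1, Col-0, Bur-0 and Fei-0. There were 28 groups of 3 arrays, but Fei-0 at 3 h had 2. The 12 Bay-0 arrays are also labelled as a recombinant inbred line and are read as Bay-0, on which each value given for Bay-0 rests. After 5 days in the cold, seed was kept in liquid culture on a shaker for 7 days (22 °C, constant light), the last 24 h of them behind a yellow filter. The sources used here give neither an auxin dose nor arrays of mock-treated seedlings, so a change with time is a change against the 0 h arrays of the same accession. The numbers in the titles run through accessions and times in turn, so neither can be told apart from an order or batch of processing. Nothing in the labels says that replicates came from separate cultures, so what the p-values measure is only how far these samples spread, and that spread may be technical. In whole seedlings, fewer cells of a type and less RNA per cell cannot be told apart.

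UGTs transfer a sugar from a UDP-sugar to small molecules, among them hormones, flavonoids, defence compounds and foreign chemicals, and usually make them more soluble and less active. GSTs join the tripeptide glutathione to reactive or foreign compounds, and some carry small molecules without changing them. The tau and phi classes are the large plant-specific ones, and several GST genes were first found in plants as genes induced by auxin or stress. Auxin itself is inactivated by UGTs that form glucose esters, by GH3 enzymes that join it to amino acids, and by oxidation.

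Signals are the deposited intensity values, linear and in arbitrary units. Changes are differences of log2(signal + 16) from limma given with their standard error (SE) from the model, and a fold change on this scale understates that of dim genes. Adjusted p-values are two-sided, from limma with Benjamini-Hochberg adjustment over all 15922 probe sets tested. A member was called where the adjusted p was under 0.05 and the change at least 2-fold, or, for a difference between accessions, where the range over the 7 accessions was at least 1 on the log2 scale. The shoot genes RCA and LHCB4.2 and the root-hair genes EXPA7 and EXPA18 had group means of 1980 to 4639, 432 to 3740, 14.3 to 208 and 18.4 to 114. The lowest means of the root-hair genes, both in Bl-1 at 0 h, lie near the 16 added to each signal. No detection calls were used. Arrays of 1 group correlated at r = 0.964 to 0.991 across probe sets, which are not independent replicates.

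In the response averaged over the 7 accessions, few changes of the members reached 2-fold, and more members fell than rose at 1 h and at 3 h. No member was called higher or lower at 30 min, where 0.609% of all tested probe sets were called higher and 0.119% lower. None was called at 1 h either, where the background was 0.81% higher and 0.151% lower. At 3 h GSTU26, a tau GST, was called lower and no member higher, with backgrounds of 0.59% lower and 0.691% higher. At the adjusted p alone, whatever the size of change, 5 members were higher and 6 lower at 30 min, against backgrounds of 10.7% and 13% of probe sets. There were 7 higher and 15 lower at 1 h (backgrounds 15.2% and 16.2%), and 10 higher and 20 lower at 3 h (22.3% and 21.7%). The members lower are 35.7% of those tested at 1 h and 47.6% at 3 h, and those higher are 16.7% and 23.8%. The median change of the 42 members was -0.04 at 30 min, -0.07 at 1 h and -0.14 at 3 h, beside -0.03, -0.01 and 0.01 over all probe sets tested. The median size of change, whatever its sign, was 0.10, 0.16 and 0.26 for the members at these times, beside 0.07, 0.08 and 0.11 over all probe sets. Among UGT genes 8 were higher and 14 lower of 30 at 3 h, and among GST genes 2 were higher and 6 lower of 12.

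**Figure D1:**
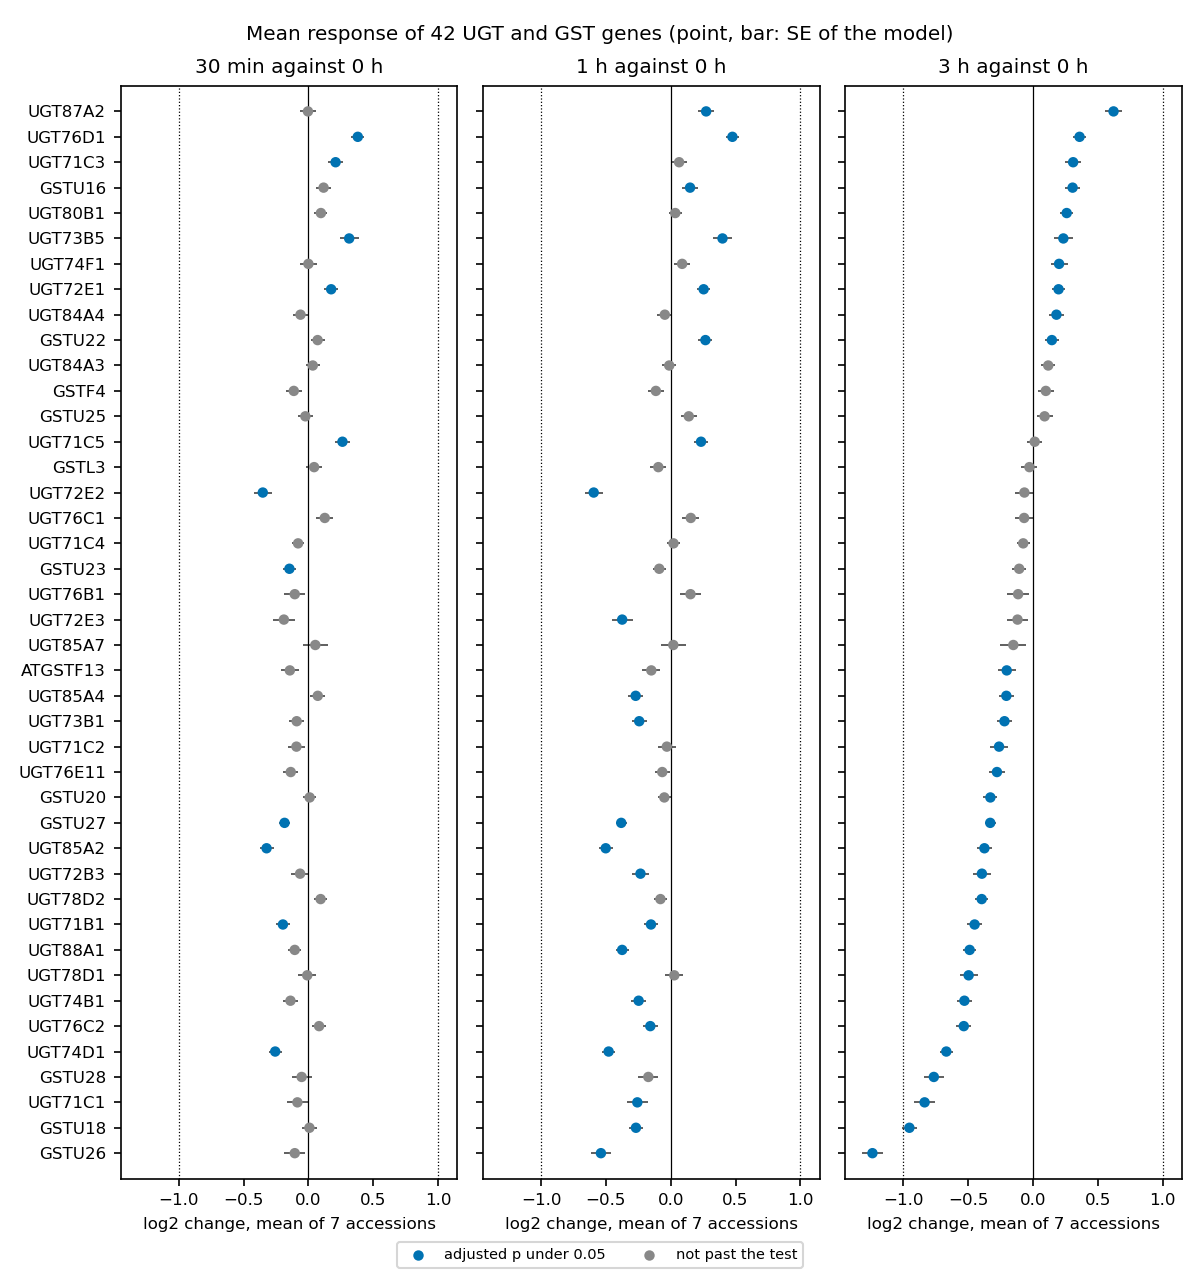
Mean log2 change (x axis) of the 42 tested genes (y axis, ordered by the change at 3 h) against 0 h at 30 min, 1 h and 3 h, over 7 accessions; bars are the SE of the model, blue points are past the adjusted p and dotted lines mark 2-fold. The values spread with time, and at 3 h they run from 0.62 for UGT87A2 at the top to -1.24 for GSTU26 at the bottom.

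The sign of the response was also more uniform at the later times. At 30 min 1 member, UGT85A2, was lower in all 7 accessions (background 3.16%), and 0 were higher in all 7 (4.33%). At 1 h 9 members were lower in all 7 (5.55%) and 3 higher (6.27%). At 3 h 14 members were lower in all 7 (8.63%), and 2, UGT80B1 and UGT87A2, were higher in all 7 (7.79%). UGT80B1 is a sterol glucosyltransferase, needed for the normal seed coat, and its mean rise at 3 h was 0.26 ± 0.05 (SE; adjusted p 1.41e-05 in limma). Markers of the shoot and root moved as well, of which 2 of 5 listed for each were tested. At 3 h RCA and LHCB4.2 were both past the adjusted p and lower (median -0.45), beside 21.7% of all probe sets. EXPA7 and EXPA18 were both past it and higher (median 0.73), beside 22.3%, and none of these markers changed 2-fold. EXPA7 and EXPA18 had already passed it as higher at 30 min and 1 h, and LHCB4.2 as lower at 1 h. The part of these shifts in the members' changes was not tested.

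GSTU26 fell in all 7 accessions at 3 h. Over all arrays its lowest, median and highest signals were 120, 235 and 483 at 0 h, 67.9, 192 and 519 at 30 min, 70.8, 150 and 285 at 1 h, then 25.8, 71.2 and 188 at 3 h. Within each of the 7 accessions every 3 h array lay below every 0 h array. Its mean change was -0.54 ± 0.08 at 1 h (adjusted p 6.02e-08) and -1.24 ± 0.08 at 3 h (adjusted p 8.12e-22), which is 0.424 of the 0 h value of signal + 16. With a pseudocount of 64 in place of 16 the 3 h change was -0.92, short of 2-fold. In the mean it fell further after 1 h, with 3 h over 1 h at -0.70 ± 0.08 (adjusted p 4.66e-11).

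The size of the GSTU26 fall differed between accessions. In Bay-0 the arrays gave 53.5, 50.3 and 67.6 at 3 h, against 483, 332 and 232 at 0 h, a change of -2.27 ± 0.21 (adjusted p 5.62e-14). In Bur-0 they gave 36.7, 25.8 and 35.9 at 3 h, against 150, 137 and 165 at 0 h, a change of -1.78 ± 0.21 (adjusted p 2.30e-10). In Col-0 they gave 72.3, 55.6 and 62.8 at 3 h, against 155, 183 and 174 at 0 h, a change of -1.23 ± 0.21 (adjusted p 4.97e-06). These 3 accessions were called, and the other 4 passed the adjusted p with changes of -0.75 in C24, -0.81 in Bl-1, -0.86 in Fei-0 and -0.98 in Sha. The range over the accessions was 1.52 (adjusted p 6.95e-05 for the difference). At 1 h the range was 1.01 (adjusted p 0.0479), and C24 alone was called, with 109, 97.4 and 162 at 1 h against 235, 303 and 240 at 0 h (-1.01 ± 0.21, adjusted p 0.000296). Leaving out any 1 of 3 C24 arrays takes that change under 2-fold (-0.88 to -0.95). The difference at 1 h passed the test narrowly and was lost when any 1 of 51 of the 83 arrays was left out.

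Another 3 members fell at 3 h with changes short of 2-fold in the mean, though past 2-fold with a pseudocount of 1 (-1.27 for GSTU18, -1.14 for GSTU28 and -1.13 for UGT71C1). GSTU18, a tau GST, had a lowest, median and highest signal of 19.1, 80.8 and 120 at 0 h, 26.2, 82.5 and 122 at 30 min, 26.1, 59.2 and 130 at 1 h, then 11.0, 29.9 and 49.9 at 3 h. In 6 of 7 accessions its 3 h arrays all lay below the 0 h arrays. Its mean change was -0.27 ± 0.05 at 1 h (adjusted p 5.05e-05) and -0.95 ± 0.06 at 3 h (adjusted p 1.87e-24), and without Bay-0 the 3 h change was -1.03, which was called. It was called in 3 accessions at 3 h. Arrays of Col-0 gave 26.2, 25.7 and 36.4 at 3 h, against 96.8, 96.3 and 104 at 0 h (-1.35 ± 0.14, adjusted p 1.29e-11). Those of Bur-0 gave 21.9, 20.6 and 14.7 at 3 h, against 75.2, 67.4 and 68.5 at 0 h (-1.31 ± 0.14, adjusted p 2.25e-11). Those of C24 gave 48.3, 48.7 and 41.6 at 3 h, against 110, 118 and 109 at 0 h (-1.05 ± 0.14, adjusted p 2.71e-08). No 3 h array of these accessions reached a 0 h array, and without 1 array of C24 at 3 h the change there was -0.99.

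UGT71C1 and the tau GST gene GSTU28 both had every 3 h array below every 0 h array within all 7 accessions. UGT71C1 signals had a lowest, median and highest of 41.2, 66.8 and 112 at 0 h, 31.7, 61.0 and 104 at 30 min, 37.2, 54.3 and 84.5 at 1 h, then 14.5, 30.0 and 56.7 at 3 h. Its mean change was -0.26 ± 0.08 at 1 h (adjusted p 0.00831) and -0.84 ± 0.08 at 3 h (adjusted p 2.56e-14). It was called in C24 at 3 h, where arrays gave 14.5, 16.5 and 21.2, against 86.0, 75.2 and 75.5 at 0 h (-1.51 ± 0.21, adjusted p 3.16e-08). GSTU28 signals had a lowest, median and highest of 33.3, 50.0 and 87.5 at 0 h, 21.3, 46.9 and 87.2 at 30 min, 21.1, 42.6 and 77.9 at 1 h, then 10.2, 21.4 and 61.6 at 3 h. Its mean change passed the test at 3 h (-0.76 ± 0.08, adjusted p 2.27e-13) and not at 30 min (-0.05) or 1 h (-0.17). C24 was again the accession called, with 17.2, 11.8 and 10.2 at 3 h, against 56.2, 60.2 and 39.1 at 0 h (-1.22 ± 0.20, adjusted p 2.63e-06). For both genes the lowest 3 h mean and the lowest 3 h array were those of C24. The difference in response between accessions at 3 h did not pass the test for either gene. For UGT71C1 the range was 1.03 (adjusted p 0.0586 in limma), and for GSTU28 it was 0.83 (adjusted p 0.208).

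**Figure D2:**
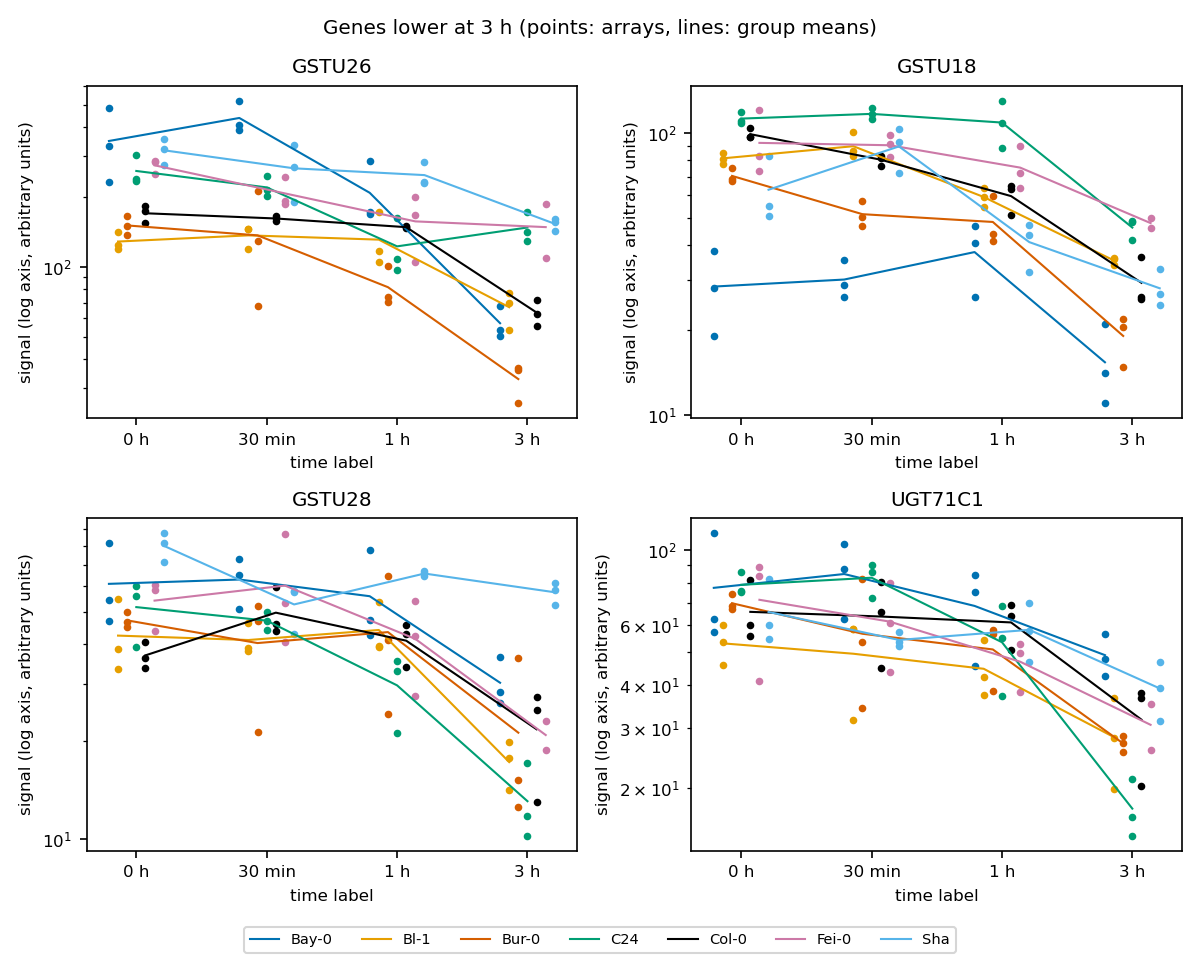
Signals (log axis, arbitrary units) of GSTU26, GSTU18, GSTU28 and UGT71C1 at 0 h, 30 min, 1 h and 3 h; points are arrays, lines join group means and colours mark the 7 accessions. All lines end lower at 3 h than at 0 h, and the GSTU26 line of Bay-0 ends at 57.1, against 349 at 0 h.

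UGTs known to glucosylate auxin had 2 members, of 5 genes listed. UGT74D1, which glucosylates indole-3-acetic acid and related auxins, fell at all 3 times and was the only tested one. Its lowest, median and highest signals were 77.4, 170 and 284 at 0 h, 75.1, 152 and 191 at 30 min, 74.6, 117 and 174 at 1 h, then 46.9, 111 and 187 at 3 h. Changes were -0.26 ± 0.05, -0.48 ± 0.05 and -0.67 ± 0.05 at the 3 later times (adjusted p 2.53e-05, 4.03e-13 and 3.78e-19). At 3 h every array lay below the accession's own 0 h arrays in all 7 accessions, and the change was -0.98 in C24 and -0.94 in Bay-0 and in Bur-0. In Bl-1 and Col-0 it was -0.29 and -0.31, which did not pass the adjusted p. At 30 min Bl-1 had gone the other way, with 110, 116 and 135 at 30 min, against 82.0, 77.4 and 85.2 at 0 h (0.48 ± 0.13, adjusted p 0.00633). The range over accessions at 30 min was 1.05 (adjusted p 1.21e-05), and 0.97 without 1 array of Bl-1 at 30 min. UGT84B1, which makes the glucose ester of indole-3-acetic acid, stayed under the filter with group means of at most 5.63. In the GH3 group GH3.1, GH3.3 and WES1 were called higher at each of the 3 times, of 4 genes tested. The other, GH3.17, passed the adjusted p as lower at 30 min and 1 h. Its changes were -0.24 ± 0.06 and -0.36 ± 0.06 (adjusted p 0.00182 and 1.69e-06), then 0.14 ± 0.06 at 3 h (adjusted p 0.0715). The median change of the 4 was 2.84 at 3 h.

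Of the cytokinin UGTs, UGT76C2 fell at 1 h and 3 h, and its neighbour UGT76C1 did not pass the test at any time. UGT76C2 had lowest, median and highest signals of 36.2, 69.7 and 104 at 0 h, 41.2, 74.5 and 107 at 30 min, 30.4, 62.0 and 114 at 1 h, then 23.1, 43.7 and 62.8 at 3 h. Its change was -0.16 ± 0.06 at 1 h (adjusted p 0.025) and -0.53 ± 0.06 at 3 h (adjusted p 1.35e-12), lower in 7 of 7 accessions at both times. That of UGT76C1 was 0.15 ± 0.07 at 1 h and -0.07 ± 0.07 at 3 h, and the difference between the genes was not tested. UGT71C5, which glucosylates abscisic acid, rose by 0.26 ± 0.05 at 30 min (adjusted p 0.00012), and its change at 1 h was 0.23 ± 0.05 (adjusted p 0.000425). It stood at 0.01 ± 0.06 at 3 h. At 30 min UGT71C5 was higher in 6 of 7 accessions, from -0.03 in Fei-0 to 0.81 in Sha. That range of 0.83 passed the adjusted p (0.0206 in limma) but was short of a call. In 1 of 7 accessions all 30 min arrays lay above the 0 h arrays.

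Of 7 genes listed for glucosinolate synthesis 2 were tested, and both fell at 3 h, when 21.7% of all probe sets were lower. UGT74B1, the enzyme that adds glucose to the sulphur of the glucosinolate core, was at -0.25 ± 0.06 at 1 h (adjusted p 0.000625) and -0.53 ± 0.06 at 3 h (adjusted p 1.53e-11), lower in 7 of 7 accessions at both times. GSTU20, a tau GST of aliphatic glucosinolate synthesis, was at -0.33 ± 0.05 at 3 h (adjusted p 3.22e-07), and its response differed between accessions.

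Flavonoid and phenylpropanoid genes had 7 tested, of which 1 rose and 3 fell at 3 h, when 22.3% of all probe sets were higher and 21.7% lower. UGT78D1, the flavonol 3-O-rhamnosyltransferase, and UGT78D2, the flavonoid 3-O-glucosyltransferase, fell by 0.50 ± 0.07 and 0.40 ± 0.05 (adjusted p 1.05e-08 and 1.30e-10), each lower in 7 of 7 accessions. The third was UGT79B1, an anthocyanin xylosyltransferase listed under the symbol UF3GT and so not a member, at -0.64 ± 0.08 (adjusted p 5.02e-10). UGT78D1 was called in Bay-0, with 29.7, 32.8 and 17.8 at 3 h, against 54.9, 88.0 and 83.8 at 0 h (-1.10 ± 0.18, adjusted p 2.44e-06). The arrays did not overlap, and leaving out either of 2 arrays takes the change just under 2-fold (-0.94 to -0.99).

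The 3 monolignol UGTs all passed the test at 1 h, UGT72E1 as higher and UGT72E2 and UGT72E3 as lower. UGT72E2 fell early and came back. Its lowest, median and highest signals were 118, 217 and 328 at 0 h, 110, 163 and 274 at 30 min, 86.4, 128 and 211 at 1 h, then 121, 203 and 329 at 3 h. Its change was -0.35 ± 0.07 at 30 min and -0.59 ± 0.07 at 1 h (adjusted p 3.17e-05 and 2.53e-11), lower in 7 of 7 accessions at 1 h, and -0.07 ± 0.07 at 3 h. The step of 3 h over 1 h was 0.53 ± 0.07 (adjusted p 2.10e-09), the largest upward step of the members. In C24 the arrays gave 116, 116 and 132 at 1 h, against 258, 293 and 255 at 0 h, a called change of -1.05 ± 0.18 (adjusted p 8.87e-06) that is -0.99 without 1 array at 0 h. The difference in response between accessions at 1 h did not pass the test (range 0.80, adjusted p 0.0924 in limma). UGT72E3 was at -0.37 ± 0.08 at 1 h (adjusted p 0.000164) and -0.12 ± 0.08 at 3 h, with a step of 0.26 ± 0.08 between them (adjusted p 0.0114). UGT72E1 rose at all 3 times, by 0.18, 0.25 and 0.20 (SE 0.05 each) (adjusted p 0.00864, 6.00e-05 and 0.0015).

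Steps between neighbouring times had no call. The step of 1 h over 30 min was called higher in 0.0691% and lower in 0% of all probe sets, and that of 3 h over 1 h in 0.182% and 0.377%. At the adjusted p alone 4 members were higher and 11 lower at 1 h over 30 min (backgrounds 12.7% and 10.9%), and 8 higher and 16 lower at 3 h over 1 h (19% and 18.7%). GSTU26 fell most in both steps.

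Lists of related genes gave few tested members. Of 10 genes listed for foreign chemicals 2 were tested. GSTU25 did not pass the test in the mean at any time. UGT72B1, which conjugates chlorinated phenols and anilines, is listed as GT72B1 and so is not a member. It was lower at all 3 times (-0.26, -0.52 and -0.24). Of 2 glutathione reductase genes 1 was lower at 1 h and at 3 h, and the 1 gene tested for other detoxification enzymes did not pass.

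Salicylate and defence UGTs had 4 tested, of which 2 rose at 30 min and at 1 h and 3 at 3 h. None of the 4 passed the test as lower. Of all probe sets 10.7%, 15.2% and 22.3% were higher at these times, and with 4 genes nothing is read from the count. UGT76D1, which glucosylates dihydroxybenzoic acids, had lowest, median and highest signals of 4.74, 16.4 and 30.9 at 0 h, 13.0, 25.7 and 38.5 at 30 min, 12.9, 26.7 and 43.0 at 1 h, then 7.40, 20.4 and 54.5 at 3 h. Its changes were 0.38 ± 0.05, 0.48 ± 0.05 and 0.36 ± 0.05 at the 3 later times (adjusted p 3.14e-09, 1.18e-12 and 1.09e-08). In 5 of 7 accessions all arrays of each later time lay above those at 0 h, while in Bl-1 and Bur-0 they overlapped. At 3 h the change was 0.98 in C24, 0.86 in Col-0 and 0.55 in Bay-0, and -0.09 in Bur-0 and -0.21 in Bl-1, which did not pass the test. The range over accessions was 1.18 (adjusted p 1.87e-07). UGT73B5, known for a part in redox status and resistance to Pseudomonas, was at 0.31 ± 0.07, 0.40 ± 0.07 and 0.23 ± 0.07 (adjusted p 0.000548, 6.56e-06 and 0.00697), with low median signals (18.5 at 1 h, against 9.48 at 0 h). UGT74F1, which glucosylates salicylic acid, passed at 3 h at 0.20 ± 0.07 (adjusted p 0.00882).

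UGT87A2, known for a part in flowering time, had the largest mean rise at 3 h. Its lowest, median and highest signals were 57.2, 90.1 and 350 at 0 h, 48.5, 95.4 and 384 at 30 min, 65.1, 113 and 352 at 1 h, then 94.2, 170 and 383 at 3 h. In all 7 accessions every 3 h array lay above the accession's own 0 h arrays. The mean change was 0.27 ± 0.06 at 1 h (adjusted p 0.000243) and 0.62 ± 0.06 at 3 h (adjusted p 1.34e-13). Col-0 was called, with 221, 191 and 173 at 3 h, against 86.1, 98.9 and 78.8 at 0 h (1.02 ± 0.16, adjusted p 1.04e-06), and without either of 2 arrays its change was 0.93 to 0.95. GSTU16, a tau GST, rose by 0.31 ± 0.06 and UGT71C3, a methyl salicylate glucosyltransferase, by 0.31 ± 0.06 at 3 h (adjusted p 1.96e-05 and 1.64e-05).

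The remaining falls at 3 h were moderate. UGT88A1 was at -0.49 ± 0.05 (adjusted p 2.47e-13), UGT71B1 at -0.45 ± 0.06 (3.93e-10), UGT72B3 at -0.39 ± 0.07 (1.55e-06) and UGT85A2 at -0.37 ± 0.05 (2.68e-08). UGT85A2 and the tau GST gene GSTU27 were lower earlier too, at -0.50 ± 0.05 and -0.38 ± 0.04 at 1 h (adjusted p 2.73e-12 and 3.49e-12), both lower in 7 of 7 accessions. UGT71B1 was called in Bay-0, with 39.9, 35.0 and 31.0 at 3 h, against 77.9, 92.4 and 97.5 at 0 h (-1.04 ± 0.15, adjusted p 6.32e-08), and at -0.98 without either of 2 arrays.

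Responses within single accessions were called in few of the 294 pairs of member and accession at each time. At 30 min 2 pairs were higher and 1 lower, 0.68% and 0.34%, against backgrounds of 1.08% and 0.359%. At 1 h 1 was higher and 2 lower (backgrounds 1.24% and 0.453%). At 3 h 2 were higher and 12 lower, 0.68% and 4.08%, against backgrounds of 1.42% and 1.21%. The 12 lower pairs came from 7 genes: GSTU18 and GSTU26 in 3 accessions each, GSTU20 in 2, and GSTU28, UGT71B1, UGT71C1 and UGT78D1 in 1 each. Tau GST genes, which are 9 of the 42 members tested, made up 9 of these 12 pairs, all from GSTU18, GSTU20, GSTU26 and GSTU28. Pairs from 1 gene are not independent results. The calls of GSTU20, UGT71B1 and UGT78D1, and that of GSTU18 in C24, are each lost without single arrays. At a pseudocount of 64 only 2 pairs were called at 3 h. In at least 1 accession at any time, 12 of the 42 members were called (28.6%), against 10.9% of all probe sets.

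The responses of 13 members differed between accessions at some time (31%), against 15.5% of all probe sets. There were 8 at 30 min (19%, background 9.23%), 4 at 1 h (9.52%, background 7.41%) and 11 at 3 h (26.2%, background 11.3%). GSTU22 and GSTU25, both tau GST genes, differed at all 3 times.

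**Figure D3:**
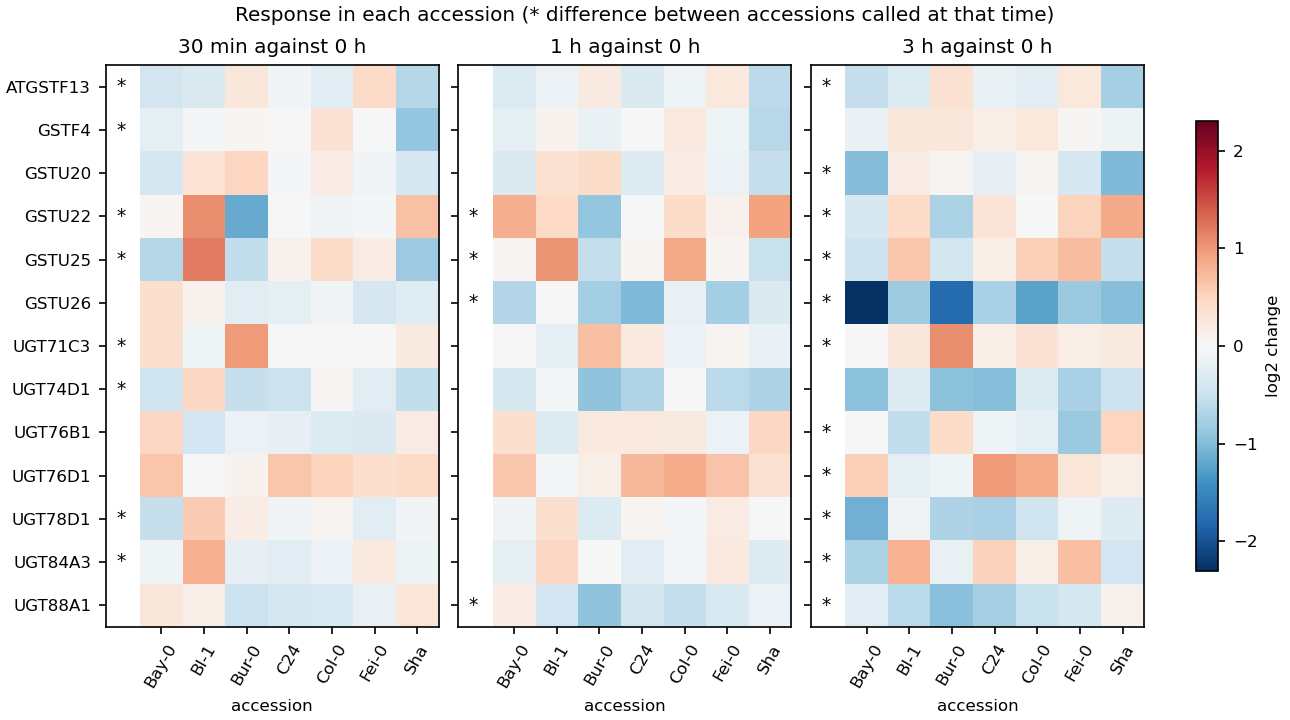
Log2 change against 0 h (colour) of the 13 genes called for a difference in response (rows, with an asterisk at the times of the call) in each of 7 accessions (columns) at 30 min, 1 h and 3 h. GSTU22 stands at 1.06 in Bl-1 and -1.17 in Bur-0 at 30 min, and GSTU26 is negative in every accession at 3 h.

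GSTU22 rose in some accessions and fell in another. At 30 min Bl-1 arrays gave 156, 165 and 155, against 66.9, 65.5 and 69.5 at 0 h (1.06 ± 0.14, adjusted p 2.45e-08). Sha arrays gave 135, 141 and 132 at 30 min, against 78.4, 90.5 and 71.4 at 0 h (0.67 ± 0.14, adjusted p 0.000299). Bur-0 arrays gave 29.2, 23.5 and 42.2 at 30 min, against 81.7, 85.2 and 103 at 0 h (-1.17 ± 0.14, adjusted p 1.30e-09). In each of these accessions the times did not overlap, and Bay-0, C24, Col-0 and Fei-0 stood between -0.07 and 0.04. At 1 h Sha and Bay-0 were up by 0.93 and 0.83 and Bur-0 was at -0.88, all past the adjusted p. At 3 h Sha arrays gave 165, 151 and 158, and Fei-0 arrays 117 and 104. Bay-0 arrays gave 26.3, 25.6 and 23.7, all below its 0 h arrays, as no 0 h array of any accession lay under 30.6. The change in Bay-0 at 3 h was -0.37, which did not pass the test (adjusted p 0.0524). The range over accessions was 2.23, 1.81 and 1.59 at the 3 later times (adjusted p 2.93e-12, 4.00e-10 and 7.45e-09).

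GSTU25, known for induction by explosives and herbicide safeners, also split the accessions, but not in the same way. At 30 min Bl-1 arrays gave 44.5, 46.9 and 56.1, against 9.13, 13.5 and 14.3 at 0 h (1.20 ± 0.16, adjusted p 1.70e-08). Sha arrays gave 58.8, 73.7 and 49.9 at 30 min, against 104, 147 and 113 at 0 h (-0.84 ± 0.16, adjusted p 5.15e-05). Bay-0 arrays gave 38.4, 31.4 and 25.2 at 30 min, against 64.5, 62.7 and 49.3 at 0 h (-0.65 ± 0.16, adjusted p 0.00228). Sha, where GSTU22 was higher, was thus lower for GSTU25, while Bl-1 was higher for both. At 1 h Bl-1 was at 1.02 (called; 0.94 without 1 array at 0 h) and Col-0 at 0.88 ± 0.16 (adjusted p 2.63e-05), with Col-0 arrays of 88.5, 88.7 and 77.9 against 37.0, 41.0 and 38.9 at 0 h. The range over accessions was 2.04, 1.57 and 1.25 at the 3 later times (adjusted p 5.27e-11, 1.18e-08 and 2.09e-07). The accession lowest at 0 h (Bl-1, 12.3 ± 2.80) rose most and that highest at 0 h (Sha, 121 ± 22.4; SD, n = 3) fell most at 30 min, and since each response is taken against those same 0 h arrays, the 2 measures are not independent.

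**Figure D4:**
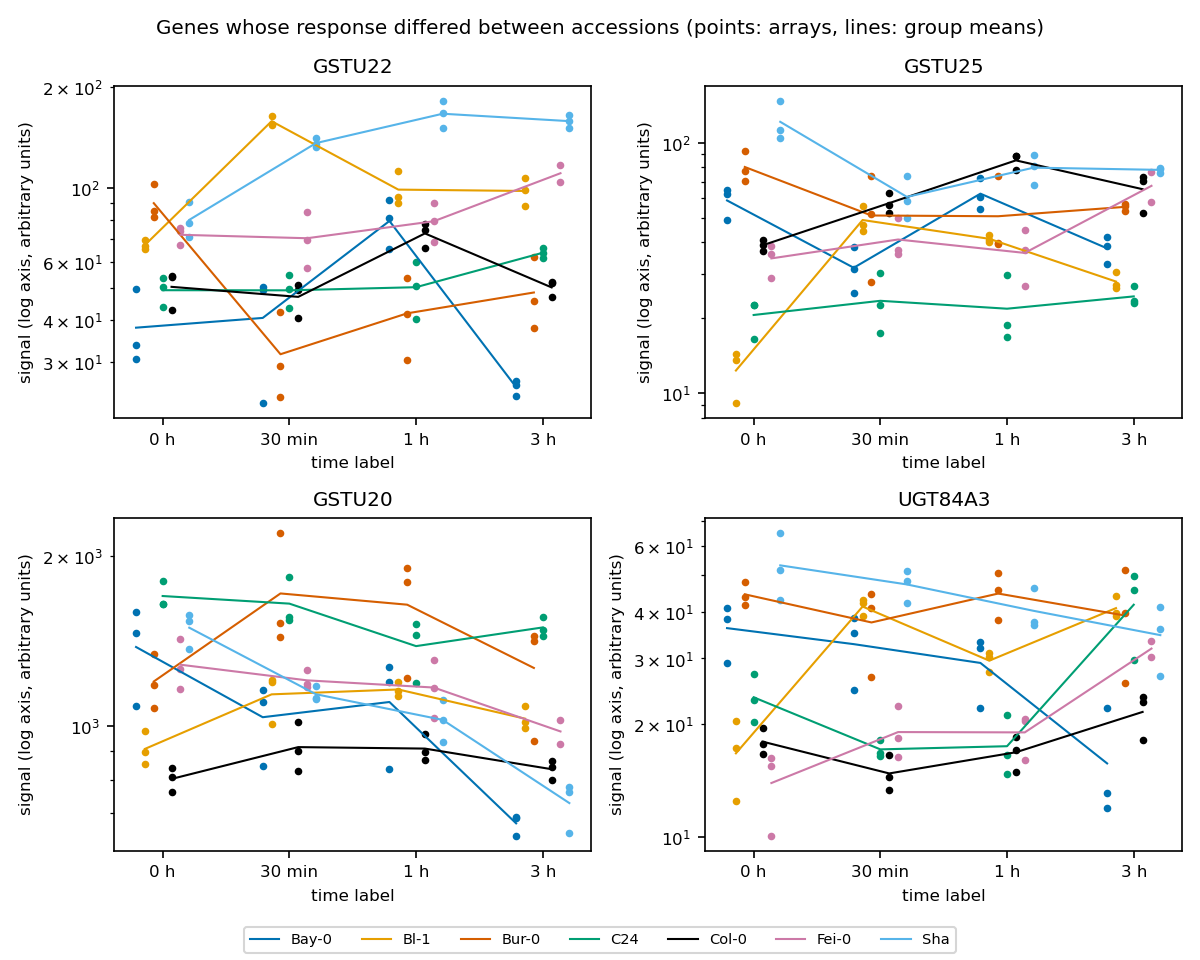
Signals (log axis, arbitrary units) of GSTU22, GSTU25, GSTU20 and UGT84A3 at 0 h, 30 min, 1 h and 3 h; points are arrays, lines join group means and colours mark the 7 accessions. The GSTU22 lines of Bl-1 and Bur-0 part at 30 min, at 158 and 31.6, and the GSTU25 lines lie closer together at 3 h than at 0 h.

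GSTU20 was lower in Bay-0 and Sha at 3 h. Bay-0 arrays gave 638, 689 and 686 at 3 h, against 1085, 1594 and 1458 at 0 h, which is 0.499 of the 0 h value (adjusted p 2.40e-08). Sha arrays gave 762, 779 and 646 at 3 h, against 1536, 1570 and 1370 at 0 h (-1.02 ± 0.14, adjusted p 2.05e-08). The times did not overlap in either accession, and the other 5 accessions stood between -0.38 and 0.18, none past the test. The range was 1.20 (adjusted p 3.56e-08). Both calls lie at the 2-fold line, and each is lost without any of 3 arrays, with changes of -0.89 to -0.97 in Bay-0 and of -0.94 or more negative, but short of 2-fold, in Sha.

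UGT84A3, which forms glucose esters of hydroxycinnamates, rose in Bl-1 at 30 min, with 38.9, 42.1 and 42.9, against 17.3, 12.5 and 20.5 at 0 h (0.81 ± 0.14, adjusted p 1.03e-05). At 3 h it was higher in Bl-1 (0.80), Fei-0 (0.68) and C24 (0.53) and lower in Bay-0 (-0.72) and Sha (-0.45), all past the adjusted p. Bay-0 arrays gave 12.0, 22.1 and 13.1 at 3 h, against 29.2, 38.3 and 40.9 at 0 h. The ranges were 1.07 at 30 min (adjusted p 0.000105; 0.97 without 1 array of Bl-1 at 0 h) and 1.53 at 3 h (adjusted p 5.49e-10).

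In the phi class, Sha had the lowest response of both genes at 30 min. GSTF4 in Sha gave 23.4, 24.3 and 24.4 at 30 min, against 51.6, 74.3 and 51.4 at 0 h (-0.89 ± 0.16, adjusted p 1.54e-05), while the other 6 accessions were between -0.23 and 0.34. At 3 h Sha had come back, with 56.7, 48.4 and 53.9. ATGSTF13 in Sha gave 18.7, 18.1 and 16.5 at 30 min, against 29.9, 39.2 and 43.6 at 0 h (-0.66 ± 0.18, adjusted p 0.00536), and was still at -0.76 ± 0.18 at 3 h (adjusted p 0.00134). Sha was not alone, as ATGSTF13 was lower in 5 of 7 accessions at 3 h. In 2 accessions, Bay-0 among them, every 3 h array lay below every 0 h array. The range of ATGSTF13 was 1.10 at 30 min and 1.12 at 3 h (adjusted p 0.00518 and 0.00415), with the highest values in Fei-0 at 30 min (0.45) and Bur-0 at 3 h (0.36), neither past the test. That of GSTF4 was 1.23 at 30 min (adjusted p 0.000794).

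UGT71C3 rose mainly in Bur-0, with 60.4, 69.2 and 101 at 3 h, against 36.8, 25.7 and 21.6 at 0 h (1.07 ± 0.16, adjusted p 1.03e-07; 0.89 and 0.96 without either of 2 arrays). It had 71.3, 59.2 and 79.9 in Bur-0 at 30 min (0.98 ± 0.16), and no other accession passed the test at either time. UGT88A1 fell most in Bur-0, with 401, 279 and 342 at 1 h and 319, 371 and 308 at 3 h, against 653, 669 and 653 at 0 h (-0.93 ± 0.13 and -0.96 ± 0.13, adjusted p 3.09e-08 and 1.15e-08). The ranges of UGT88A1 were 1.11 at 1 h (adjusted p 0.000195) and 1.05 at 3 h (adjusted p 0.000119). Without Bay-0 the range of UGT88A1 at 1 h was 0.80 and that of UGT71C3 at 3 h was 0.91, both short of a call. UGT76B1, which glucosylates salicylic, isoleucic and N-hydroxypipecolic acid, had a range of 1.35 at 3 h (adjusted p 0.00249), with Fei-0 at -0.86 ± 0.24 (arrays of 61.1 and 42.9 at 3 h, against 93.2, 121 and 106 at 0 h; adjusted p 0.0102) and Sha at 0.50 (adjusted p 0.105).

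Many members lie beside each other in the genome. By the order of loci in the RefSeq table, 39 of the 61 lie within 5 loci of another member, in 16 groups, 7 of them with at least 2 tested genes. Some neighbours moved in opposite directions in the same accession. GSTU25 and GSTU26 are neighbours on chromosome 1, and at 3 h Bl-1, Col-0 and Fei-0 were past the adjusted p with GSTU25 at 0.64, 0.55 and 0.72 and GSTU26 at -0.81, -1.23 and -0.86. GSTU20, GSTU22 and GSTU23 share another group on chromosome 1, and at 3 h Sha was at -1.02 for GSTU20 and 0.86 for GSTU22. Other neighbours moved the same way, as UGT71C1 and UGT71C2 were both lower in 7 of 7 accessions at 3 h. Neighbours of either kind were not counted. Whether the probes of one gene also bind the transcript of a close relative was not tested.

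Levels at 0 h differed between accessions for many members. The test called 20 of 42 (47.6%), against 23.3% of all probe sets, and 39 of 42 passed the adjusted p at any size (92.9%, background 80.4%). These were 13 of 30 UGT and 7 of 12 GST genes. The median range over accessions was 0.99 for the members and 0.64 for all probe sets tested. Of these 20, 10 were also called for a difference in response, and 3 genes were called for response only. Each response is taken against the same 0 h arrays that give the level, so level and response are not independent measures. No share of all probe sets called for both was set beside this overlap, and nothing is read from it. The 3 members that did not pass the adjusted p for level were UGT80B1, UGT71C1 and UGT85A7 (adjusted p 0.273, 0.465 and 0.779).

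**Figure D5:**
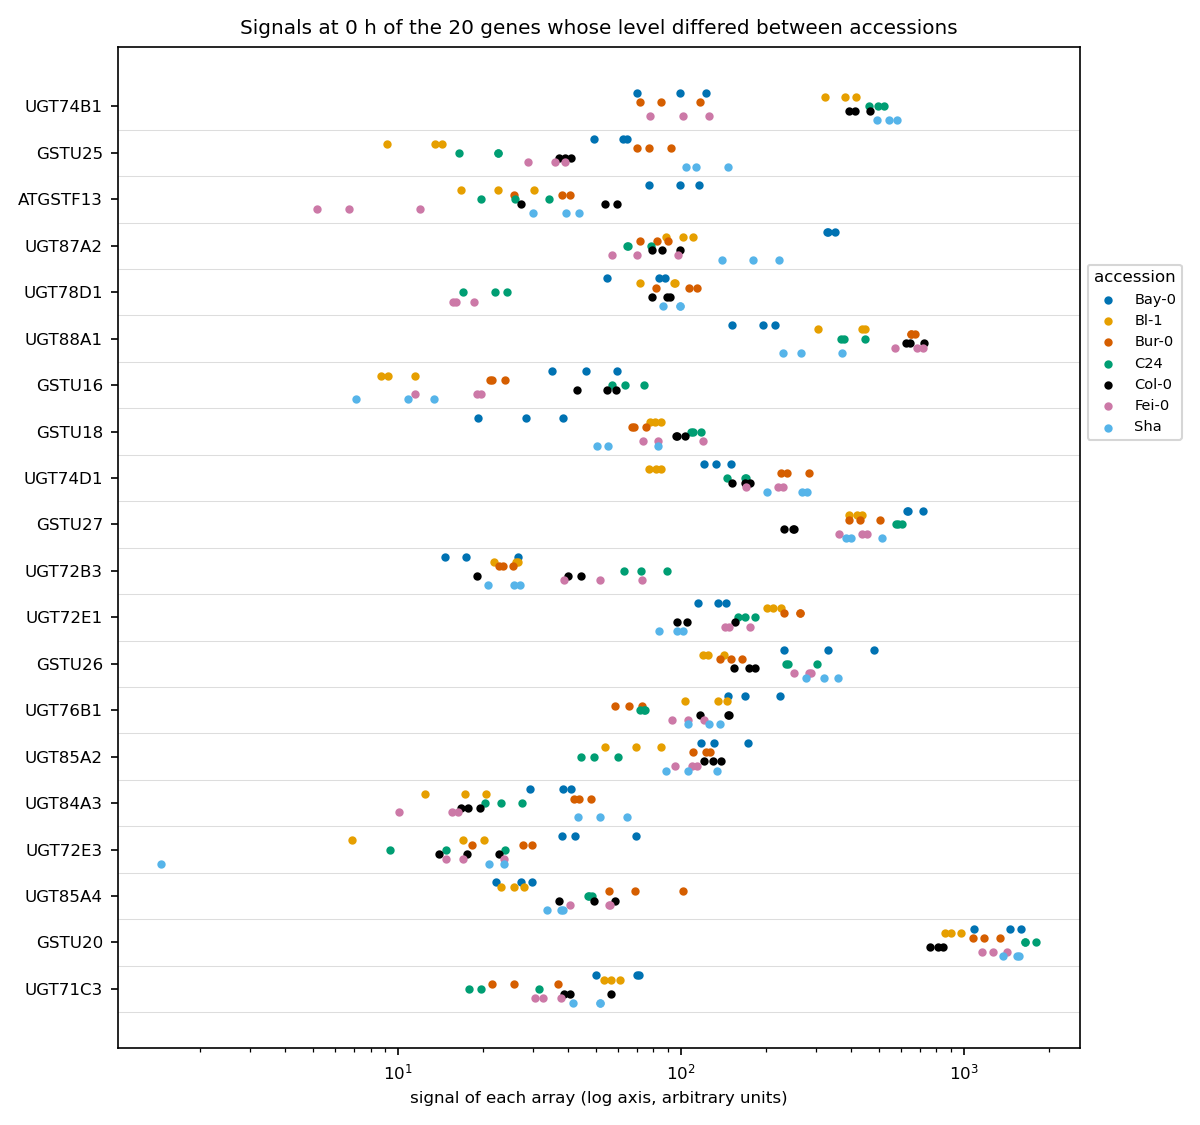
Signals at 0 h (x axis, log scale, arbitrary units) of the 20 genes whose level differed between accessions (y axis, by range); each point is an array and colours mark the 7 accessions. UGT74B1 falls into accessions with means of 372 to 539 and of 91.1 to 102, and Bay-0 stands alone at the right for UGT87A2 at 336.

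UGT74B1 showed the widest range, 2.39 (adjusted p 8.76e-30). Sha arrays gave 544, 493 and 579, C24 arrays 495, 462 and 521, Col-0 arrays 394, 414 and 467, and Bl-1 arrays 414, 322 and 382. Fei-0 arrays gave 102, 126 and 77.8, Bay-0 arrays 69.8, 99.4 and 123, and Bur-0 arrays 117, 71.9 and 84.8. The 4 high and 3 low accessions did not overlap at 0 h, nor at any later time: over all 4 times the low ones had arrays of 48.4 to 126 and the high ones of 227 to 579.

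UGT87A2 was highest in Bay-0, with 350, 330 and 329 at 0 h, and next in Sha with 222, 179 and 140. The other 5 accessions had means of 69.3 (C24) to 100.2 (Bl-1), and their arrays did not reach those of Sha. The range was 2.05 (adjusted p 1.07e-19). Bay-0 kept arrays of 304 to 384 over the 4 times, while those of Col-0 lay between 68.5 and 221.

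UGT78D1 was low in 2 accessions. Bur-0 arrays gave 107, 81.4 and 114 at 0 h, while C24 arrays gave 17.0, 22.1 and 24.3 and Fei-0 arrays 18.6, 16.1 and 15.7. The other 4 accessions had means of 75.6 to 94.9, and no array of theirs overlapped C24 or Fei-0. The range was 1.82 (adjusted p 4.39e-18). Over the 4 times the highest array was 29.4 in C24 and 25.9 in Fei-0.

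The GST genes with the widest ranges were GSTU25 at 2.27 (adjusted p 3.97e-21) and ATGSTF13 at 2.24 (adjusted p 2.14e-15). ATGSTF13 arrays gave 116, 99.2 and 77.2 in Bay-0, and 6.73, 11.9 and 5.19 in Fei-0. No array of the other 5 accessions lay in either range, with values of 16.8 to 59.4. GSTU16 was high in C24 (64.9 ± 8.51), Col-0 (52.4 ± 8.27) and Bay-0 (46.9 ± 12.3; SD, n = 3), and had means of 9.79 to 22.2 in the other 4 (range 1.65, adjusted p 2.38e-18). GSTU18 was low in Bay-0, with 19.1, 38.2 and 28.3, against 110, 118 and 109 in C24 (range 1.55, adjusted p 1.64e-14), and without Bay-0 its range was 0.72. GSTU27 had 661 ± 51.2 in Bay-0 and 243 ± 10.1 in Col-0 (range 1.38, adjusted p 6.93e-17).

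Other UGT genes differed in level by a factor of 2 or more on the same scale. UGT88A1 had means of 665 ± 53.5 in Col-0 and 658 ± 9.70 in Bur-0, and 187 ± 32.5 in Bay-0 (SD, n = 3; range 1.76, adjusted p 2.23e-22). UGT74D1 had 249 ± 31.1 in Bur-0 and 249 ± 41.2 in Sha, and 81.5 ± 3.93 in Bl-1 (range 1.44, adjusted p 2.69e-16). UGT72B3 gave 63.0, 72.2 and 89.2 in C24 and 14.7, 26.6 and 17.4 in Bay-0 (range 1.36, adjusted p 2.23e-10). Ranges of UGT72E1, UGT85A2, UGT84A3, UGT76B1, UGT72E3, UGT85A4 and UGT71C3 lay between 1.04 and 1.29. The calls for UGT71C3, UGT72E3 and UGT85A4 are lost without single arrays (ranges of 0.91 to 0.98). Without Bay-0 the ranges of UGT76B1, UGT71C3 and UGT72E3 were 0.91, 0.92 and 0.47, all under the 2-fold line.

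Among the 20 members called for level, Bay-0 was the highest accession for 8 and the lowest for 3, while Bl-1 was the highest for 0 and the lowest for 5. Over all probe sets called, Bay-0 was the highest for 21.2% and the lowest for 27.4%, and Bl-1 for 12.9% and 12.7%. The 3'/5' ratio of the actin control, a sign of RNA quality, was spread over the accessions too, with group means between 2.57 and 5.57 in Bay-0, between 2.89 and 5.87 in C24, between 62.9 and 105 in Col-0, and between 13.4 and 60.7 in the other 4 accessions. Group means of the GAPDH ratio lay between 1.41 and 2.99 over all accessions. The part of RNA quality in the level differences was not tested. Nor was that of mismatches between the probes, designed on Col-0, and the other accessions, so these are differences of signal.

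The 19 members under the filter carried signals near the floor and were not tested. UGT85A7 was the dimmest member tested, with a mean signal of 13.0. Of those left out UGT71B5 lay just below it at 12.9, and the others had lower means, down to 1.04 for UGT76E1. For 14 of the 19 no group mean exceeded 16. GSTU15, UGT71B5, UGT71B6, UGT73B4 and UGT73D1 did so in at least 1 group. GSTU15 had 0 h means of 31.4 ± 9.09 in Bay-0 and 23.7 ± 11.9 in Sha (SD, n = 3), and of 2.08 to 5.61 in the other 5 accessions. UGT73B4 reached 22.6 ± 0.38 in Bl-1 at 30 min, beside a median of 2.43 over its 83 arrays. These values describe dim probe sets, and no difference was tested for them.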

How the data were processed

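Per the file headers and the labels, the deposited table holds 1 signal intensity for each of 22810 probe sets on 83 arrays; MAS5 and GCOS are named in the notes of the submitters, without versions in the sources used here. Each array's mean without the lowest and highest 2% of values is 100, so the deposited values had been scaled. Probes of this array were designed on the genome of the Col-0 accession, and mismatches to the other accessions were not tested. The 64 controls were left out. Genes were named from GEO's platform annotation updated through the RefSeq gene table. Sequences were not analysed here.

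Models were fitted to log2(signal + 16) in limma 3.58.1 (R 4.3.3) on the 15922 probe sets left after dropping the 30% of lowest mean, with 1 mean per group, no covariate and a trended prior (55 residual and 13.2 prior degrees of freedom). The SE of a mean response rests on the spread between arrays, not between accessions. The fit was tested on simulated data. The members, lists, tests and thresholds were chosen with earlier results of these data known. Named genes were members called in the mean, those with the 10 largest mean changes each way or the 10 smallest p per test, the 10 widest ranges at 0 h, the 8 highest and lowest mean levels (not set against each other), the largest called changes per accession, the 5 largest steps, and those on the role lists; values for others at the edge of the filter were chosen after they were seen. Replicate numbers were not taken as pairing arrays. Deviations of same-numbered arrays of an accession correlated at a median of 0.00836, over 0.1 in 18 of 123 pairs. For arrays of other numbers in the same accession the median was -0.00574, over 0.1 in 27 of 246 pairs. For arrays no depth applies, and their number limits the precision.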

Additional observations from a re-analysis of the deposited data

Results flagged for a closer look

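The responses of 13 genes differed between accessions by the moderated F test in limma with a range of at least 1 on the log2 scale. The test compares all 7 accessions at once, so it does not say which pairs differ. For GSTU22 the range was 2.23, 1.81 and 1.59 at the 3 later times, and for GSTU25 it was 2.04, 1.57 and 1.25. Other tau GST genes were GSTU26, at 1.01 at 1 h and 1.52 at 3 h, and GSTU20, at 1.20 at 3 h. Of the phi class, ATGSTF13 had ranges of 1.10 at 30 min and 1.12 at 3 h, and GSTF4 1.23 at 30 min.

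Among UGT genes, UGT84A3 had ranges of 1.07 at 30 min and 1.53 at 3 h, and UGT76B1 one of 1.35 and UGT76D1 one of 1.18 at 3 h. UGT78D1 was at 1.12 at 30 min and 1.01 at 3 h, UGT71C3 at 1.08 at both of these times, and UGT88A1 at 1.11 at 1 h and 1.05 at 3 h. UGT74D1 had 1.05 at 30 min. Without 1 array the range fell under 1 or the adjusted p went over 0.05 at some time for UGT71C3, UGT74D1, UGT78D1, UGT84A3, UGT88A1, ATGSTF13 and GSTU26, and for GSTU22 and GSTU25 no array did so.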

How the results depend on the processing

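Counts that need a 2-fold change moved with the pseudocount. At a pseudocount of 1 the members called were 4 in the mean at 3 h (GSTU26, GSTU18, GSTU28 and UGT71C1). They were 9 and 20 for a difference in response at 1 h and 3 h, and 32 for level. The pairs of member and accession called were 13, 18 and 47 at 30 min, 1 h and 3 h. At 64 the members called were 0 in the mean at 3 h, 2, 1 and 3 for a difference in response, and 11 for level. The pairs called at 64 were 0, 0 and 2. By construction a larger pseudocount shrinks changes of dim genes. Without Bay-0, 2 members were called in the mean at 3 h, and 8 of 60 called member results lost their call: the levels of GSTU18, UGT71C3, UGT72E3 and UGT76B1, and the differences in response of UGT78D1 (30 min and 3 h), UGT88A1 (1 h) and UGT71C3 (3 h). Leaving out a replicate number or single arrays gave 1 to 5 calls in single accessions at 1 h, 12 to 20 at 3 h, and 3 to 8 differences in response at 1 h. At the adjusted p alone, both pseudocounts and quantile normalization gave 10 higher and 20 lower at 3 h, as reported. Without replicate 3 there were 7 higher and 18 lower at 3 h and 3 of each at 30 min (5 and 6 reported), and without single arrays up to 9 lower at 30 min. With the replicate number as a block, which is not known to pair the arrays, each of 64 called member results kept its call. Quantile normalization kept 62, no filter 63, an untrended prior 63, and a pseudocount of 64 kept 19. No direction of a called result turned. Every member had 1 probe set, so using all probe sets changed nothing.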
